A study of Homo sapiens with 2 samples.

Results

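CpG islands that lie inside the bodies of protein-coding genes, away from any start of transcription, were profiled for the called positions of an MNase-seq list. Islands were found in the hg38 sequence of chromosomes 1-22 by a running score in which each CpG adds 17 and each other base takes away 1, and kept where they were over 500 bp long, had a GC content of at least 55% and held over 0.65 times the CpGs that their base content predicts. Members lay wholly inside a protein-coding gene of GENCODE 44 and over 2000 bp from every annotated start site. The rule used sequence and annotation only and no called position. It took 1296 of 16567 islands: 514 exonic islands, with at least 50% of their bases in exons of protein-coding transcripts, 650 intronic islands with no such base, and 132 mixed islands in between. They lay in 1023 genes, and 27 of them lay in genes on both strands.

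ARPE-19 is an established human cell line derived from retinal pigment epithelium. The labels list 2 samples of it, named as batches 1 and 2, both grown under normal culture and taken in interphase, so there was 1 group, with no treated, untreated or deproteinised control arm. Micrococcal nuclease, which cuts DNA between nucleosomes, was applied for 5 min at 37 °C, and fragments of about 150 bp were recovered from a gel. The deposited list does not name a batch, so no value could be given for each batch and no error between batches could be measured.

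The list gives single bases with no height or p-value, and these are called positions here. It held 2558490 distinct positions on chromosomes 1-22, or 0.928 per kb of determined sequence. The number of reads behind it is unknown. All intervals below are exact or Wilson 95% intervals that cover counting error only, and no p-value is given. What a position marks within a fragment is not given in the sources used here. The labelled cell type could not be checked, because positions on DNA carry no marker of it.

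CpG islands are stretches in which CpG has not been depleted, and most known ones surround the starts of genes, where they are usually free of DNA methylation. Islands inside genes are known to be methylated more often, and many of them coincide with coding exons or with copies of repeated elements. DNA rich in G and C generally bends readily around histones, while chromatin at active start sites is depleted of nucleosomes. Methylation, histone marks and transcription were not measured in the data used here.

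The following stretches show the kinds of sequence behind the results, each on the plus strand of hg38 with every CpG in capitals. The first 2 are from exonic islands, in coding sequence: 150 bp around a position in the exonic island with the most positions, in KCNJ12 (chr17:21415997-21416146), and 150 bp at the middle of the longest exonic island without a position, in TCHH (chr1:152110056-152110205). The next 2 are the intronic counterparts in PTPRN2 (chr7:157687389-157687538) and RPH3AL (chr17:255663-255812). In the KCNJ12 and PTPRN2 stretches the called position is base 76.

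KCNJ12: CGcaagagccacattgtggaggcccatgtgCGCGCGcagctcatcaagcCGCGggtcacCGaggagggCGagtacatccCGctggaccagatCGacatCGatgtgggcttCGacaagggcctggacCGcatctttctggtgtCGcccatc
TCHH: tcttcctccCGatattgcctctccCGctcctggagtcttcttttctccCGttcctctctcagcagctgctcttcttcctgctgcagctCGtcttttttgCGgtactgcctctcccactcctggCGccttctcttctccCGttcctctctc
PTPRN2: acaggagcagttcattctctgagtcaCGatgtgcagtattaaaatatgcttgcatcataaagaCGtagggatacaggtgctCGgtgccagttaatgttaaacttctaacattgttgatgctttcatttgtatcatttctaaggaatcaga
RPH3AL: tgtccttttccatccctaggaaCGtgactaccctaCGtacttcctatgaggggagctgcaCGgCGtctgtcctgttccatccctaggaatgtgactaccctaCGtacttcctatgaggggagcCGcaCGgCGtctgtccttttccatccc

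The KCNJ12 stretch held 14 CpGs and had a GC content of 63.3%. The PTPRN2 stretch held 3 CpGs at 38.0% GC, although its island as a whole had 63.5% GC, so that position lay in an AT-rich stretch of the island. The stretch from RPH3AL, on the other hand, shows a unit that recurs within its own 150 bp, and 96.7% of that island consisted of 31-base words that recur within the island itself.

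Gene-body islands held few positions. Of the 1296 members, 238 held at least 1 position from edge to edge, which is 18.4% (16.4 to 20.6%), against 35.7% of all islands. Start-site islands, which overlap a start site of a protein-coding gene or lie within 2000 bp of one, held a position in 40.6% of 12062 cases (39.7 to 41.5%), and intergenic islands in 22.6% of 1212 (20.3 to 25.05%). Members were shorter, with a median length of 766.5 bp against 989 bp for start-site islands, so shares are given beside densities below. Of the members, 178 held 1 position, 51 held 2 and 9 held 3 or more, up to 10, and 1058 held none.

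Among the members, exonic islands held a position in 96 of 514 cases, or 18.7% (15.5 to 22.3%). Intronic islands did so in 103 of 650, or 15.8% (13.2 to 18.9%), and mixed islands in 39 of 132, or 29.5% (22.4 to 37.8%). The exonic and intronic intervals overlapped, while that of the mixed islands lay above both. In unique sequence the shares were 18.8% (15.5 to 22.5%), 28.6% (23.3 to 34.5%) and 31.6% (23.3 to 41.4%), and the mixed islands no longer stood apart from the intronic ones.

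**Figure D1:**
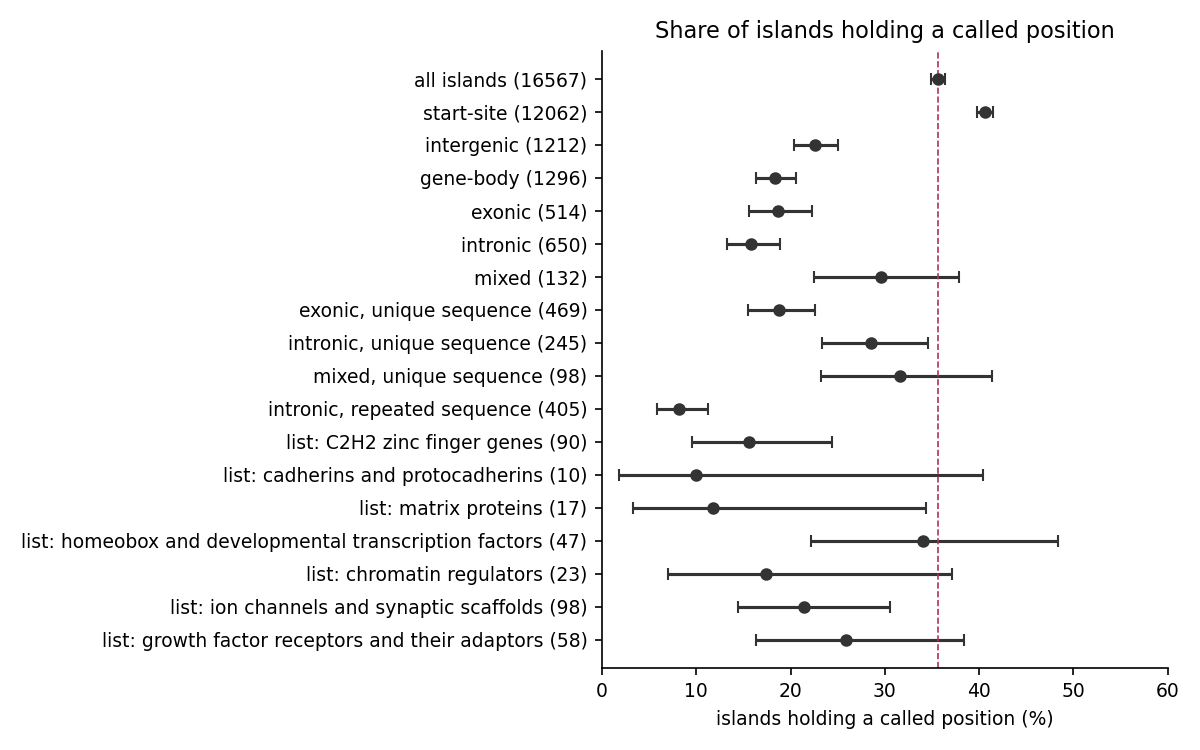
Share of islands (x axis, percent) that held at least 1 called position from edge to edge, by kind of island and by list of host genes, with the number of islands in brackets; bars are 95% Wilson intervals and the dashed line is the share of all islands. Gene-body islands sit at 18.4%, below all islands at 35.7%, and intronic islands of repeated sequence sit lowest among the island kinds, at 8.15%.

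Exonic islands were about 7-fold poorer in positions inside than the gene sequence around them. Their interior, over 200 bp inside the edge, held 61 positions in 298 kb, or 0.205 per kb (0.156 to 0.263). The surroundings, 2000 to 4000 bp outside the same islands within protein-coding genes and away from other islands and start sites, held 1813 positions in 1235 kb, or 1.47 per kb (1.40 to 1.54). The ratio was 0.139 (0.106 to 0.180). The interior was lower on 22 of 22 chromosomes, with a mean log2 ratio of -2.77 ± 1.15 (SD over the 19 chromosomes with positions in both). Chromosomes are parts of the same list, so that spread describes the genome and not cultures.

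Intronic islands had a similar deficit before repeated sequence was set apart. Their interior held 57 positions in 325 kb, or 0.175 per kb (0.133 to 0.227), against 1.27 per kb (1.22 to 1.32) in their surroundings, a ratio of 0.138 (0.104 to 0.179). This too was lower on 22 of 22 chromosomes. Mixed islands were less poor, with 33 positions in 71.2 kb, or 0.463 per kb (0.319 to 0.651), and a ratio to their surroundings of 0.297 (0.202 to 0.422).

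The exonic difference was smaller relative to a GC expectation. The expected density of each base was taken as the autosomal density of its GC class, from the 200 bp around it. These classes included the islands themselves, so in GC-rich classes the expectation already held part of their low density. The scale can therefore understate how poor the islands were. On that scale the surroundings of exonic islands held 1.01 times the expected number of positions and the interior 0.246 times, so the log2 ratio moved from -2.84 (-3.24 to -2.47) to -2.05 (-2.44 to -1.68). For intronic islands it moved only from -2.86 to -2.73. The expected densities were 0.832 per kb in the interior and 1.45 in the surroundings of exonic islands, and 1.18 and 1.29 per kb for intronic ones.

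**Figure D2:**
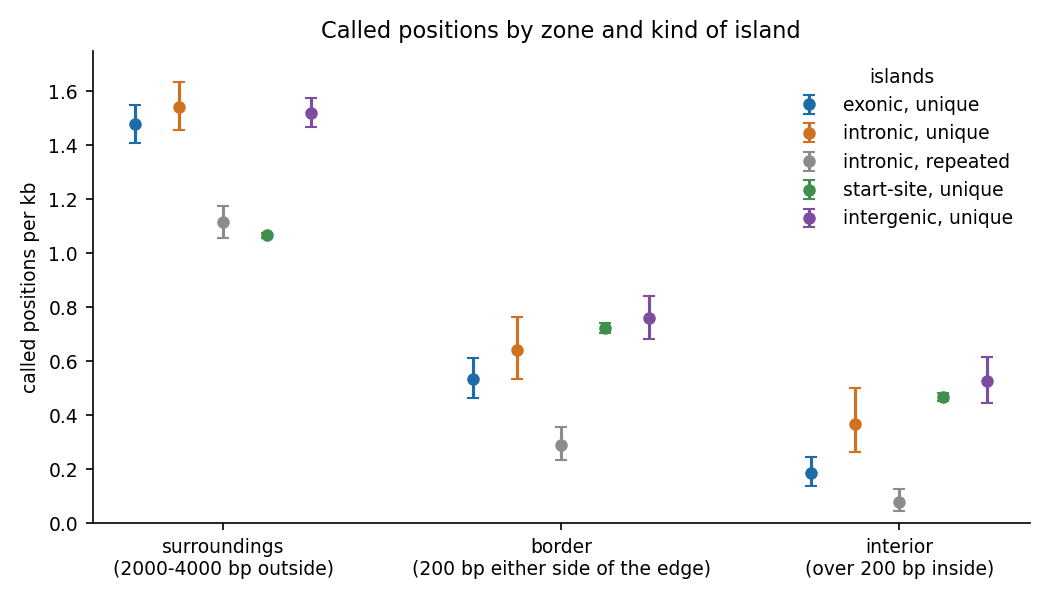
Called positions per kb (y axis) in the surroundings, at the border and in the interior of exonic, intronic, start-site and intergenic islands of unique sequence and of intronic islands of repeated sequence; points are densities and bars exact 95% Poisson intervals. From surroundings to interior, exonic islands fall from 1.48 to 0.186 per kb and intronic islands of unique sequence from 1.54 to 0.368 per kb. The surroundings of exonic and intronic islands lie in protein-coding genes and away from start sites. Those of start-site islands have neither limit, and those of intergenic islands need not lie in genes.

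Exonic and intronic members differed in how much of their sequence occurs elsewhere. An island was called unique where at least 95% of its 31-base words occur at 1 place on chromosomes 1-22, X and Y. This held for 469 of 514 exonic islands but for 245 of 650 intronic ones, and for 10639 of 12062 start-site islands. The median share of such words was 100% in exonic and 56.4% in intronic islands.

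Intronic islands of repeated sequence were the poorest members. Their interior held 17 positions in 217 kb, or 0.0785 per kb (0.0457 to 0.126), while intronic islands of unique sequence held 40 in 109 kb, or 0.368 per kb (0.263 to 0.501). The repeated ones were 4.69-fold lower (2.60 to 8.82), and 33 of 405 of them held a position, against 70 of 245. Their surroundings differed less, at 1.11 and 1.54 per kb. How reads that match several places were treated before calling is not given in the sources used here, and its part in this difference was not tested.

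With repeated sequence left out, exonic islands were the poorer class. Exonic islands of unique sequence held 49 interior positions in 263 kb, or 0.186 per kb (0.138 to 0.246), which is 0.506 times (0.326 to 0.788) the density of the intronic ones. With GC expected, the factor was 0.634, with a log2 interval of -1.29 to -0.02. Over all members the order was the opposite and not separated from equality, at 0.22 on the log2 scale (-0.32 to 0.77). There it was separated from equality with GC expected, at 0.73 (0.18 to 1.28), and with any exon overlap counted as exonic, at 0.56 (0.07 to 1.07), both with the exonic islands denser. Among unique islands, the exonic density was lower than the intronic on 9 chromosomes and higher on 12. Those counts include chromosomes where 1 of the classes had no interior position. Over the 10 chromosomes with positions in both, the mean log2 ratio was -1.31 ± 1.23 (SD). Counts per chromosome were small, so they cannot show whether the summed ratio was uniform along the genome.

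Pooled over exonic and mixed members base by base, the exon part was poorer than the intron part. Exon bases held 120 positions in 494 kb, or 0.243 per kb (0.201 to 0.290), and intron bases 65 in 134 kb, or 0.486 per kb (0.375 to 0.620). The ratio was 0.499 (0.366 to 0.686), or 0.586 with GC expected. It was below 1 on 15 chromosomes and above 1 on 6. Restricted to islands of unique sequence, the densities were 0.222 and 0.514 per kb. Within exonic islands alone the ratio was 0.556 (0.343 to 0.947), and within mixed ones 0.658 (0.326 to 1.24), an interval that includes equality. These ratios pool bases over islands, and only 260 of the 514 exonic islands held both kinds of base. In the 392 exonic and mixed islands with both, 55 of 120 positions lay in exon bases. The count would be 65 if each island's positions had been spread evenly over its bases. In the exonic islands among them it was 42 against 47.3. No interval was computed for these counts, so a deficit within the same islands was not established.

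Coding bases and intron bases of members were both poorer than those of their host genes. Coding bases of members held 95 positions in 425 kb, or 0.224 per kb (0.181 to 0.274), whereas coding bases of the same host genes outside islands and away from start sites held 1859 in 1455 kb, or 1.28 per kb (1.22 to 1.34). The difference was 5.71-fold (4.64 to 7.09), and 3.62-fold with GC expected. Intron bases of members held 204 positions in 719 kb, or 0.284 per kb. That was 4.02-fold (3.51 to 4.64) below introns of the host genes, and 4.26-fold with GC expected. In members of unique sequence, coding bases held 0.199 per kb and intron bases 0.481. Outside islands, introns of the same genes held 1.14 per kb, less than their coding bases, but with GC expected the order turned, at 1.03 times the expected number in introns and 0.914 times in coding bases. Bases of 3' UTRs in members held 25 positions in 66.5 kb, or 0.376 per kb (0.243 to 0.555), and those of 5' UTRs none in 3.08 kb, which allows up to 1.20 per kb.

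**Figure D3:**
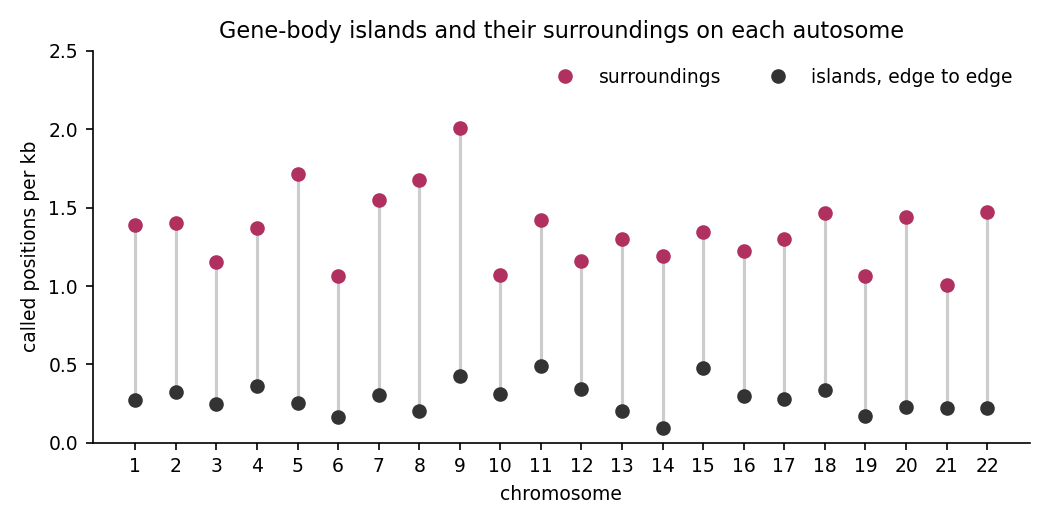
Called positions per kb (y axis) on each autosome (x axis) in gene-body islands from edge to edge and in their surroundings; each point is 1 chromosome of the same list. The islands lie between 0.0945 and 0.491 per kb and the surroundings between 1.01 and 2.00 per kb, with no overlap.

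Members were also lower inside than start-site islands. The interior of all members held 151 positions in 695 kb, or 0.217 per kb (0.184 to 0.255), against 4544 in 9863 kb, or 0.461 per kb (0.447 to 0.474), at start sites, a ratio of 0.472 (0.398 to 0.555). Members were lower on 19 chromosomes and higher on 3. Against their own surroundings, interiors were 6.28-fold (5.34 to 7.43) lower in members and 2.27-fold (2.20 to 2.34) lower at start sites. These folds are not directly comparable, because the surroundings were not defined alike. Those of members lay inside protein-coding genes and over 2000 bp from every start site, while those of start-site islands had neither limit. The surroundings held 1.36 per kb in members and 1.05 at start sites.

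Exonic and intronic islands stood apart in that comparison once unique sequence alone was used. The exonic ratio to unique start-site islands was 0.398 (0.294 to 0.528). The intronic ratio was 0.788 (0.562 to 1.07), an interval that reaches equality, and 0.605 with GC expected, with a log2 interval of -1.21 to -0.28. Intergenic islands, which overlap no annotated gene, held 0.290 interior positions per kb (0.250 to 0.335), and members lay at -0.42 (-0.74 to -0.10) relative to them on the log2 scale. Beyond 5000 bp from start sites that interval included equality, at -0.33 (-0.73 to 0.06). In unique sequence the exonic ratio to intergenic islands was 0.355 (0.252 to 0.492).

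No step was detectable at the distance limit of 2000 bp. Members 2000 to 3000 bp from a start site held a position in 39 of 210 cases, or 18.6% (13.9 to 24.4%). Islands inside genes 1000 to 2000 bp from a start site, just outside the rule, held one in 45 of 268, or 16.8% (12.8 to 21.7%). Their densities from edge to edge were 0.255 and 0.274 per kb.

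At the edges, positions thinned out before the island began. The border, 200 bp either side of each edge, held in members 510 positions in 1037 kb, or 0.492 per kb (0.450 to 0.537), which was 2.26 times (1.88 to 2.73) the interior. The factor was 2.66 (2.00 to 3.60) in exonic and 2.41 (1.80 to 3.29) in intronic islands, and 1.52 (1.46 to 1.58) at start-site islands. With GC expected, it was 1.72 in members but 0.914 at start sites, with a log2 interval of -0.184 to -0.075 there. On that scale the border of start-site islands lay slightly below their interior.

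In 50-bp bins, the density of all members was 0.918 per kb 150 to 100 bp outside the edge and 0.239 per kb (0.163 to 0.340) in the next bin, 100 to 50 bp outside, where 31 positions lay. Inside the edge it was higher again, with 73 positions or 0.563 per kb (0.442 to 0.708) in the first 50 bp, 2.35 times (1.53 to 3.71) the bin 100 to 50 bp outside. The dip was present in both classes, at 9 positions in exonic and 17 in intronic islands, against 24 and 39 in the first 50 bp inside. The corresponding factors were 2.67 (1.20 to 6.52) and 2.29 (1.27 to 4.32), and 1.52 (1.38 to 1.68) at start-site islands. These windows had been taken from an earlier result for islands in general, which included the members.

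The last 50 bp outside the edge gave different counts in the classes, with overlapping intervals. Exonic islands held 26 positions there and 24 in the 50 bp just inside, so the sides of the edge did not differ beyond counting error. Intronic islands held 15 and 39. Outside, these were 0.506 per kb (0.330 to 0.741) in exonic and 0.231 per kb (0.129 to 0.381) in intronic islands, and in unique sequence 0.512 (0.328 to 0.761) and 0.327 per kb (0.141 to 0.643). Each island opens and closes on a CpG because of how the score works, so the bins next to the edge share a fixed sequence context.

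**Figure D4:**
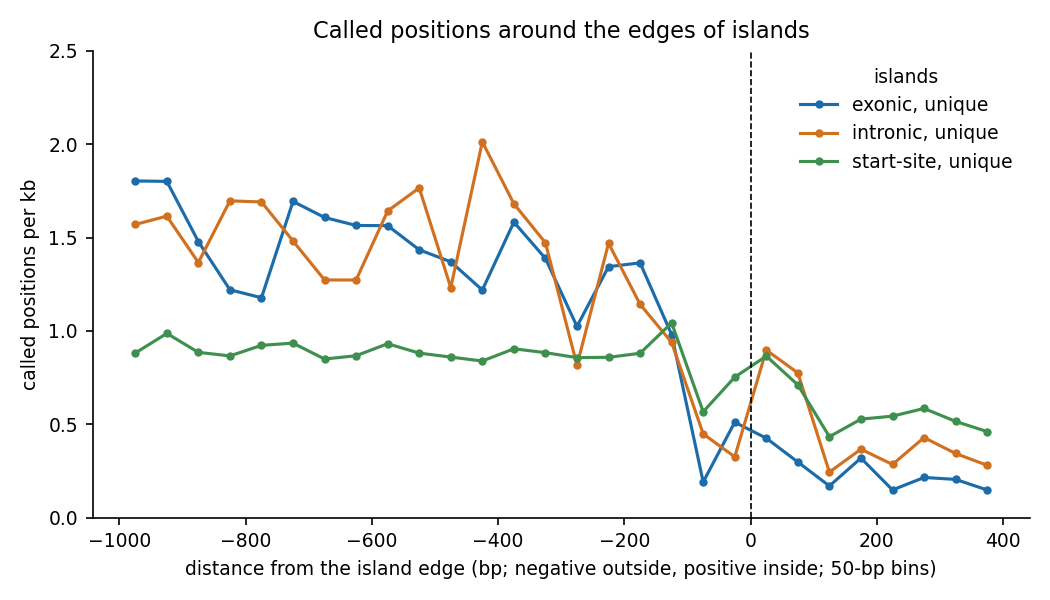
Called positions per kb (y axis) in 50-bp bins by distance from the island edge (x axis, bp, negative outside and positive inside), both edges combined, for exonic, intronic and start-site islands of unique sequence. Exonic islands fall from 0.981 per kb to 0.192 per kb between 150 and 50 bp outside the edge, and intronic islands rise to 0.898 per kb in the first 50 bp inside.

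The upstream and downstream edges of members, taken along the host gene, did not differ beyond counting error. In exonic islands the 200 bp inside the 5' edge held 27 positions, or 0.263 per kb (0.173 to 0.382), and those inside the 3' edge 39, or 0.379 per kb (0.270 to 0.519). In intronic islands the counts were 38 and 44.

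Among the members, density fell with the CpG ratio and the GC content of the whole island. From an observed to expected CpG ratio of 0.65 to 0.75, through 0.75 to 0.85, to over 0.85, members held 0.379, 0.256 and 0.154 positions per kb, and the highest of these classes (0.323 to 0.442) did not overlap the lowest (0.118 to 0.198). Exonic islands of unique sequence followed the same order, with 0.387, 0.225 and 0.113 per kb. In intronic islands of unique sequence the values were 0.545, 0.454 and 0.331 per kb, with overlapping intervals.

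GC content gave the same order. Members with 55 to 65% GC held 0.369 per kb (0.310 to 0.437), those with 65 to 70% held 0.279 and those above 70% held 0.161 (0.124 to 0.205). For exonic islands of unique sequence these values were 0.420, 0.273 and 0.144 per kb. At a set CpG count the fall with GC was not seen. In 150-bp windows with 10 to under 15 CpGs, members held 0.165, 0.245, 0.355 and 0.308 per kb at 55 to 60, 60 to 65, 65 to 70 and 70 to 75% GC. With 5 to under 10 CpGs they held 0.277, 0.448, 0.256 and 0.306 per kb. The intervals overlapped within each CpG class. Position within the gene showed no order over all members, at 0.257, 0.276 and 0.266 per kb in the 5', the middle and the 3' part of the gene, each of equal length. In unique members density fell along the gene, at 0.410 (0.310 to 0.533), 0.389 and 0.280 per kb (0.232 to 0.334), with overlapping intervals. Neither unique exonic islands (0.321, 0.151 and 0.246) nor unique intronic ones (0.474, 0.520 and 0.386) kept that order alone. Exonic islands lay late in their genes, at a median of 84.6% of the gene's length, and intronic ones at 44.4%.

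At matched local composition, members still held fewer positions than their host genes. In windows of 150 bp with 65 to 70% GC and 10 to under 15 CpGs, members held 62 positions in 175 kb, or 0.355 per kb (0.272 to 0.455), and 0.381 per kb in unique sequence. Windows of the same GC and CpG content in the same host genes, outside islands and away from start sites, held 269 in 219 kb, or 1.23 per kb (1.09 to 1.38). At 60 to 65% GC and the same CpG content the values were 0.245 and 1.32 per kb. Host-gene sequence also lost positions as CpGs increased, from 2.78 per kb with under 5 CpGs to 1.23 with 10 to under 15 at 65 to 70% GC. Within exonic islands, the windows around positions held 12.2 ± 3.66 CpGs (SD over 127 positions) and those around all bases 14.0 ± 4.77. Within intronic islands both were near 12, at 12.1 and 12.2.

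**Figure D5:**
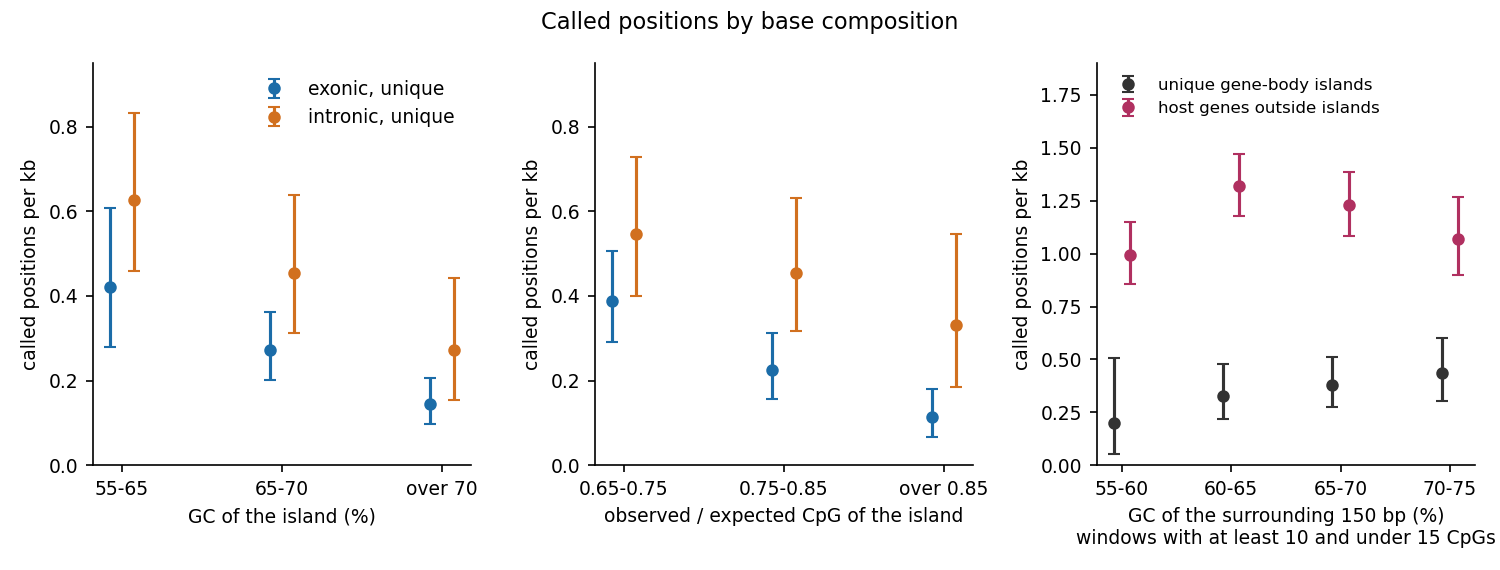
Called positions per kb (y axes) in exonic and intronic islands of unique sequence by the island's GC content (left) and observed to expected CpG ratio (middle), and, for 150-bp windows with 10 to under 15 CpGs, in unique gene-body islands and in host genes outside islands by window GC (right); bars are exact 95% Poisson intervals. At 65 to 70% GC the islands hold 0.381 per kb and the host genes outside islands 1.23 per kb.

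Part of the intronic class was a single sequence family. Members that shared at least 10% of their 31-base words were grouped, and the largest group held 113 islands, 110 of them intronic, in 110 genes on 20 chromosomes. Their median length was 773 bp and their median GC content 69.3%. Not 1 position fell in their 90.0 kb, which allows up to 0.0410 per kb, while 200 to 1000 bp outside their edges there were 120 positions in 181 kb, or 0.664 per kb (0.550 to 0.794). The family was defined by shared words alone and is not named here.

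Sharing words was not always accompanied by a lack of positions. The second family, 33 islands in 33 genes with a median GC content of 59.1%, held 9 positions in 21.9 kb, or 0.411 per kb (0.188 to 0.780), in 7 islands. The third was made of 7 islands in CCDC200 alone, with no position in 5.20 kb and none in the 11.2 kb from 200 to 1000 bp outside them. There the flanks were as empty as the islands.

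KCNJ12 carried the exonic island with the most positions. KCNJ12 (ENSG00000184185.10) encodes an inwardly rectifying potassium channel, and the island spans most of its coding exon at chr17:21415339-21416729. It held 10 positions, 7 of them in the interior, or 7.19 per kb. The flanking 4000 bp on either side held 8.88 per kb and the gene as a whole 6.11 per kb, so the island lay between the density of its gene and that of its flanks. Only 25.6% of its 31-base words were unique in the genome.

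LINGO1, which encodes a neuronal receptor component with leucine-rich repeats, had the exonic island of unique sequence with the most positions (chr15:77614009-77615794, 97.9% coding). It held 4 positions, at 764, 913, 942 and 1103 bp from its lower edge, or 2.24 per kb, in a gene with 4.29 per kb. EPPK1, for the cytoskeletal linker epiplakin, ESPN, for the actin-bundling protein espin, the zinc finger gene ZNF696 and the kinesin gene KIF26B had 2 positions each, the longest of 19 exonic islands with that count. In EPPK1 these lay close together, at 8316 and 8360 bp from the lower edge of an 8588-bp island whose words were 4.45% unique.

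The longest exonic islands were nearly empty. The island in PLEC, which encodes plectin, a linker of intermediate filaments, was 11865 bp long, 97.8% unique and held 1 position. The 4000 bp on either side held 0 positions, and its gene was poor as well, at 0.390 per kb, so the island was not emptier than its flanks. The island in APC2, a relative of the APC tumour suppressor, held 1 position in 6035 bp of fully unique sequence. Its flanks held 0.375 per kb and its gene 0.520 per kb.

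Among exonic islands without a position, the longest were in TCHH, ZNF316 and LRRC4B. TCHH encodes trichohyalin of the hair follicle, and neither its 5218-bp island nor the rest of the gene held a position. The 3294-bp island of ZNF316, a zinc finger gene, was empty in a gene with 1.34 per kb, and so was the 2518-bp island of LRRC4B, a synaptic adhesion gene, in a gene with 1.18 per kb.

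The intronic island with the most positions was in PTPRN2, which encodes a phosphatase-like protein of secretory vesicles. It was also the longest intronic one, at 9833 bp (chr7:157684195-157694027), was 99.99% unique and held 6 positions, all in its interior, or 0.610 per kb in a gene with 1.59 per kb. LMX1B, a LIM homeobox transcription factor, had 5 positions in 3119 bp, or 1.60 per kb, between flanks with 3.38 per kb. SLC25A48, a mitochondrial carrier gene, CACNA1H, for a T-type calcium channel, and the cilium gene CFAP77 had 3 each, and KCNG2, a potassium channel subunit, had 2, the longest of 21 intronic islands with that count. All 6 of these islands except that of CFAP77 were less dense than their flanks: CFAP77 had 3.06 per kb against 2.13.

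The longest intronic islands without a position were made of short recurring units. They were in RPH3AL, a Rab effector gene of secretory cells, with 4127 bp, in the unnamed gene ENSG00000286001 with 3815 bp, and in RASA3, a Ras GTPase-activating protein, with 3746 bp. Between 93.6 and 98.8% of their words recurred within the same island, and 1.21 to 5.02% were unique in the genome. Such self-repeating islands, with at least 50% recurring words, made up 139 of the 650 intronic members and 7 of the 514 exonic ones.

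Several genes held many members. DLGAP2, which encodes a postsynaptic scaffold, had 20 intronic islands with 1 position in 23.4 kb, and 3 of the 20 were of unique sequence. PTPRN2 had 17 islands with 10 positions in 26.8 kb, of which 6 were in the long island described above. PRDM16, a zinc finger regulator of transcription, had 10 with 3 positions. RASA3 had 9 with none. These islands share a gene and are not independent.

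The host genes were also grouped by symbol into 8 lists, and each is described by counts alone, to be read against the 18.4% of all members and the 23.3% of unique members that held a position. Developmental transcription factors of the homeobox and related families had the highest share, 16 of 47 islands or 34.0% (22.2 to 48.3%), with 18 interior positions or 0.556 per kb (0.330 to 0.879), against 0.217 per kb over all members and 0.272 in unique members. Nearly all of these islands, 45 of 47, were unique. The interval of their share included the 23.3% of unique members but not the 18.4% of all members. The share of all islands, start-site ones included, was 35.7%. LHX5, a LIM homeobox gene, gave 7 of the 18 interior positions, all in a 5764-bp mixed island, and GATA4, which acts in heart and gut development, had islands with 2 positions each in its mixed and intronic sequence.

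C2H2 zinc finger genes, whose finger arrays are often encoded by a single exon, gave 90 islands, of which 14 or 15.6% (9.50 to 24.4%) held a position, at 0.114 interior positions per kb (0.0419 to 0.248). ZNF696, ZNF74 and PRDM16 had 2 positions in an island. Ion channel and synaptic scaffold genes held one in 21 of 98 islands or 21.4% (14.5 to 30.5%), led by KCNJ12, PTPRN2 and CACNA1H. The symbol patterns placed PTPRN2, which is neither a channel nor a scaffold, in this list and also in that of growth factor receptors, so its 17 islands and 10 positions count in both. Growth factor receptor and adaptor genes held one in 15 of 58, or 25.9% (16.3 to 38.4%). The intervals of the zinc finger, channel and receptor lists all included the share of all members. In IGF1R, the receptor of insulin-like growth factor, a 542-bp intronic island held 2 positions.

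The smaller lists, too, had intervals that included the share of all members. Chromatin regulators held one in 4 of 23 islands or 17.4% (6.98 to 37.1%) and none in the interior, with 2 positions in KDM6B, a histone demethylase gene, and 1 each in DOT1L, a histone methyltransferase gene, and SMARCD3, a remodelling subunit. Matrix protein genes held one in 2 of 17, or 11.8% (3.29 to 34.3%), with 2 positions in the collagen gene COL6A2 and 1 in TNXB. Cadherin genes held one in 1 of 10 (1.79 to 40.4%), a position in CELSR2. No member lay in a gene of the pigment epithelium list. The interior intervals of the homeobox and zinc finger lists did not overlap, but this rested on the LHX5 island: without it, a choice made after seeing the data, the homeobox list held 11 interior positions or 0.407 per kb (0.203 to 0.729). Without LHX5 the homeobox interval also included the 0.272 per kb of unique members. The intervals of the other pairs of lists overlapped.

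Where an island held more than 1 position, the pairs of neighbours in members were few, and their spacing was described without intervals. Exonic islands had 31 neighbouring pairs, in 21 islands, with a median distance of 161 bp. Of these pairs, 13 were closer than 100 bp, less than the DNA of a nucleosome core. Intronic islands had 36 pairs, in 26 islands, at a median of 215.5 bp, 3 of them closer than 100 bp and 16 between 150 and 220 bp. Start-site islands had 2589 pairs at a median of 303 bp. The KCNJ12 island, with 10 positions, weighed most among the exonic pairs and alone gave 4 of the 13 close ones. Pairs within an island are not independent.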

How the data were processed

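MNase-seq of ARPE-19 cells gave 2 libraries of 1 group. The authors deposited 1 list of called 1-bp positions, with no value other than the coordinate and no score. Reads were aligned with Bowtie2 to hg38, per the submitters' processing notes. The peak caller, its threshold, the use of reads that match several places and any pooling of batches are not given in the sources used here. The list was split by neither batch nor depth, so precision was taken from counts of positions alone.

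Repeated rows were removed, and positions were counted per determined base. The reference was hg38 in upper case without repeat masking, and the annotation GENCODE 44. The islands, members, gene lists and windows were chosen with earlier results of these data known. Islands were named by host gene: the 6 exonic and 6 intronic ones with the most positions, the 3 longest, the 3 longest without a position, and up to 3 per gene list. The sequence families and the neighbours of the distance limit were chosen after the data were seen.

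Ratios of densities have exact conditional binomial intervals, densities exact Poisson intervals and shares Wilson intervals, all at 95%. Counting was tested on simulated positions. Alternatives were a GC expectation in 2% classes, merging positions closer than 100 bp, leaving out chromosomes 9 and 15, islands of unique 31-base words, a distance of 5000 bp, another exon rule, other surroundings and border widths, and leaving out the 3 islands with the most interior positions, exonic and mixed islands apart, and the homeobox list without its richest island, the last 3 added after seeing the data. The software was numba 0.67.0, pandas 2.3.3, scipy 1.17.1 and numpy 2.4.6 under Python 3.11.15. Chromosomes X and Y and other sequences were not used for positions.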

Additional observations from a re-analysis of the deposited data

How the results depend on the processing

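Over 9 results, 54 alternatives were computed, and 53 kept the direction of the main value. Those of the share of members holding a position could not change direction, because a share is never negative. Of the 54 alternatives, 45 stayed within the 95% interval of the main value. The exception in direction was the exonic against the intronic interior, 0.22 on the log2 scale, which was -0.98 in islands of unique 31-base words. The same restriction moved the intronic interior against its surroundings from -2.86 to -2.07, members against start-site islands from -1.08 to -0.78, members against intergenic islands from -0.42 to -0.95 and the share of members holding a position from 18.4 to 23.3%. With GC expected, the exonic interior against its surroundings moved from -2.84 to -2.05, the border against the interior from 1.18 to 0.78, and members against start-site islands from -1.08 to -1.43. A border of 100 bp gave 0.87. The causes of these shifts were not tested. The interval of exonic against intronic, which spans 0, was wholly above it with GC expected (0.18 to 1.28) and with any exon overlap (0.07 to 1.07), and wholly below it in unique sequence (-1.62 to -0.34). The interval of members against intergenic islands came to include 0 beyond 5000 bp from start sites, at -0.73 to 0.06. That of exon against intron bases came to include 0 in mixed islands alone, at -1.62 to 0.31, a choice made after seeing the data. Without the 3 islands richest in interior positions, a choice made after seeing the data, the exonic and intronic interiors were at -3.14 and -3.14 and members against start-site islands at -1.26.

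No paired analysis was possible because the list does not separate the batches. Leaving out a batch was not possible for the same reason. Read depth is unknown, so an island without a position cannot be read as free of nucleosomes, and positions in an island cannot be weighted by reads.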
